A study of Mus musculus with 17 samples.

Results

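The interferon response and nucleic acid sensing genes described here are a listed set of 33 genes, of 31517 genes in the deposited count tables, and all 33 were found in them. They are 5 sensors of foreign or misplaced nucleic acid, 4 genes of interferon signalling, 19 interferon-stimulated effector genes and 5 interferon-inducible GTPases. The list was given by name, and it was chosen with earlier results of these data known. Shares of called members beside those of all genes thus describe these data and are no independent test. RNA was sequenced from cerebella of C57BL/6 mice at postnatal day 3, and every sample carried Math1-Cre, a recombinase driven by the promoter of Math1 (Atoh1), which is active in the progenitors of cerebellar granule neurons. In the background without Bax and Bak, effectors of mitochondrial apoptosis, 4 control samples carried Bax-loxP/loxP on a Bak--/- genotype, and 5 samples carried Atr-loxP/loxP in addition. The second background was p53-loxP/loxP, with 3 control samples and 5 samples that carried Atr-loxP/loxP as well. Atr encodes a kinase that acts when replication forks stall. The groups are called Bax/Bak controls, Atr/Bax/Bak, p53 controls and Atr/p53 below. No group lacks both the Bax and Bak changes and the p53 change, so neither background has a wild-type reference here. Recombination is expected in the Math1 lineage alone, while the RNA came from whole cerebella whose other cells keep their loxP-flanked genes, and fewer cells of a type cannot be told apart from less RNA per cell.

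Interferons are secreted proteins that bind surface receptors and, through JAK kinases and factors such as STAT2 and IRF9, switch on a large group of interferon-stimulated genes. The DNA sensor cGAS (Cgas) and its partner STING (Tmem173), and the RNA sensors RIG-I (Ddx58) and MDA5 (Ifih1), can start that response when nucleic acid appears in the cytoplasm. In the brain, microglia and endothelial cells are known for strong responses, and neurons and astrocytes respond as well.

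The 16 deep libraries held 42987953 to 100659645 estimated counts each, so that 1 count was worth at most 0.0233 CPM (counts scaled to a common library size). Replicate 3 of Atr/p53 held 13601 counts, none of them in a member, and was left out of the fits except where named. Bak1, the gene of Bak, lay at 0.237 to 0.607 CPM in the 9 libraries labelled Bak--/- and at 32.6 to 41.6 CPM in the 7 deep libraries of the p53 background. Bax lay at 24.7 to 36.7 CPM in the Bax/Bak background and 54.2 to 73.7 CPM in the p53 background, and Trp53, the gene of p53, at 62.2 to 76.8 and 29.3 to 45.5 CPM. Atr by whole-gene counts lay at 38.4 to 48.0 CPM in the Bax/Bak controls and 35.8 to 43.5 CPM in Atr/Bax/Bak, and at 36.3 to 38.2 CPM in the p53 controls and 33.7 to 40.2 CPM in Atr/p53. These counts cover exons outside the loxP-flanked part and cells without Cre, so they check the Atr label only weakly. The labels name the samples by number series: the Bax/Bak controls come from series 100019 (replicates 1 and 2) and 1842 (replicates 3 and 4), Atr/Bax/Bak from 1836 alone, the p53 controls from 1843 (replicate 1) and 1845 (replicates 2 and 3), and Atr/p53 from 1843. The 12 markers of the cerebellar granule lineage were all tested and summed to 2078 to 4407 CPM in the 16 libraries. What a series stands for is not given in the sources used here. Within the Bax/Bak background the series and the genotype cannot be told apart, and nothing in the labels says whether a sample is 1 animal or a pool, or whether samples came from separate litters.

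Loss of Atr went with higher levels of many of these genes in the Bax/Bak background. Of the 32 members that could be tested, 17 rose and 1 fell at an adjusted p below 0.05 (edgeR quasi-likelihood test, Benjamini-Hochberg adjustment over all genes). That is 53.1% higher and 3.12% lower, against 22.5% higher and 22% lower among the 17425 genes tested. The median log2 fold change of the members was 0.71, beside 0.04 for all genes. The steepest rise was that of Igtp, a GTPase that acts on membranes around intracellular microbes, at 6.72-fold. Many genes changed in this comparison, so a call for a single gene is common. Of the tested members, the libraries of both groups did not overlap for 14 that were higher and 2 that were lower in Atr/Bax/Bak, and 17.1% and 21.1% of all tested genes were separated in those directions. With the controls of series 100019 alone 12 members rose and 2 fell, beside 21.2% and 20.4% of all genes. With those of series 1842 alone 22 rose and 2 fell, beside 20.2% and 24.6%.

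In the p53 background no member was called between Atr/p53 and p53 controls. The 32 tested members had a median log2 fold change of -0.20, beside 0.01 for all genes, with 10 above and 22 below 0. At an unadjusted p below 0.05 there were 3 members, namely Mx1, Ifitm3 and Irgm1. Of all 17361 genes tested, 0.0461% rose and 0% fell, so few calls were made for any kind of gene in this comparison of 4 with 3 libraries. Series 1843 holds all Atr/p53 libraries and 1 control, and against the controls of series 1845 alone no member was called either. DESeq2, another count test, called 1 member, Mx1, and limma-voom none. Only Mx1 had all Atr/p53 libraries above all controls and 2 members had them below, where 3.58% and 4.63% of all genes were separated in those directions.

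**Figure D1:**
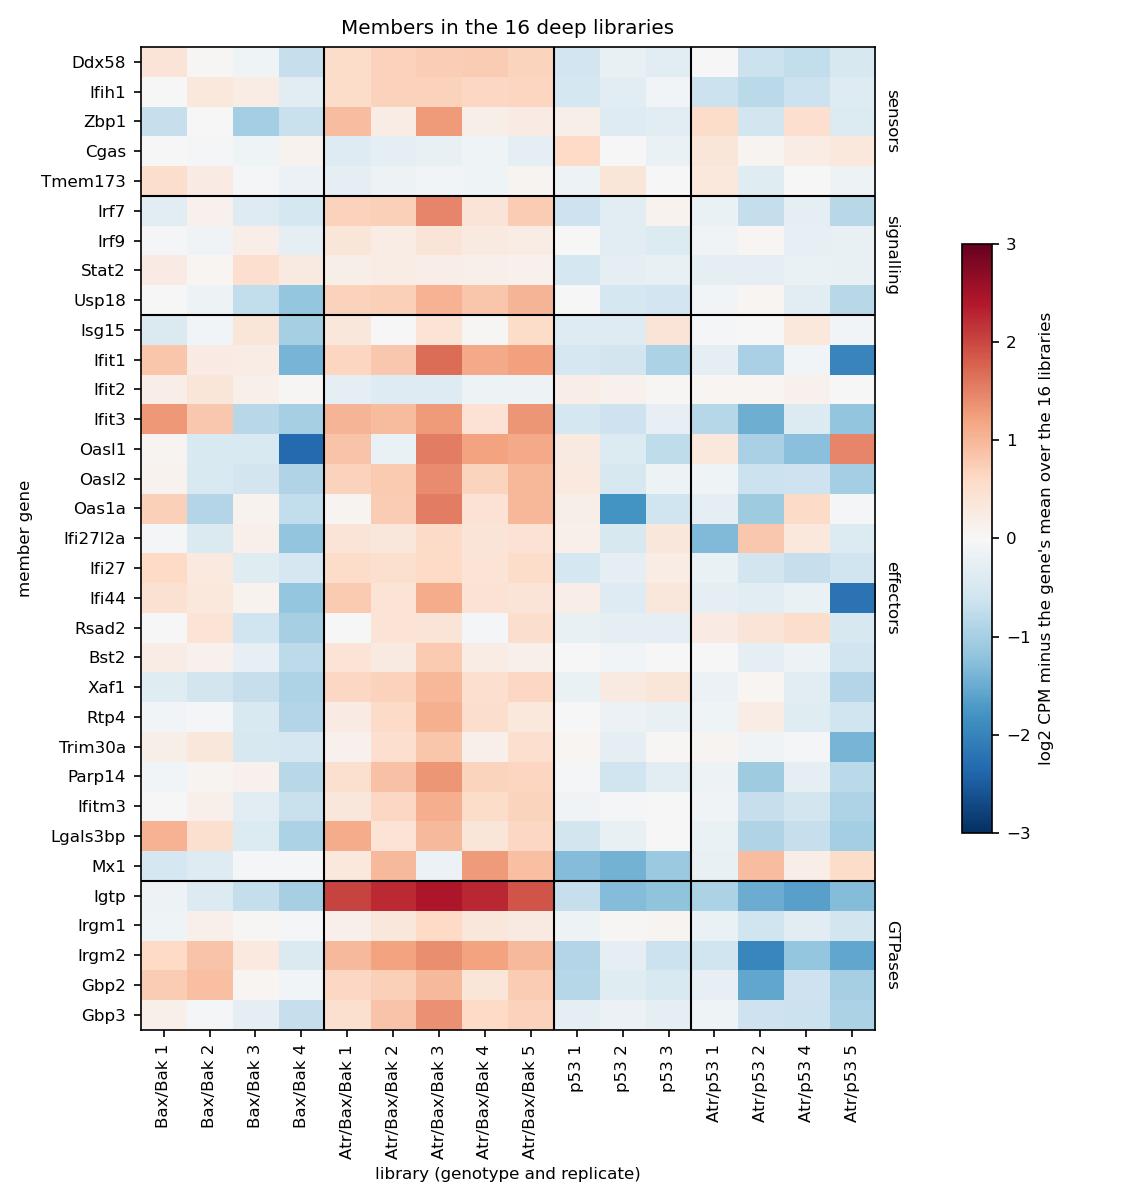
Each row is a member and each column a deep library. Colour is the log2 CPM minus the gene's mean over the 16 libraries, black lines part the 4 genotypes and the 4 roles. The columns of Atr/Bax/Bak are mostly above the row means, with Igtp the furthest, and Bax/Bak control replicate 4 is mostly below them.

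**Figure D2:**
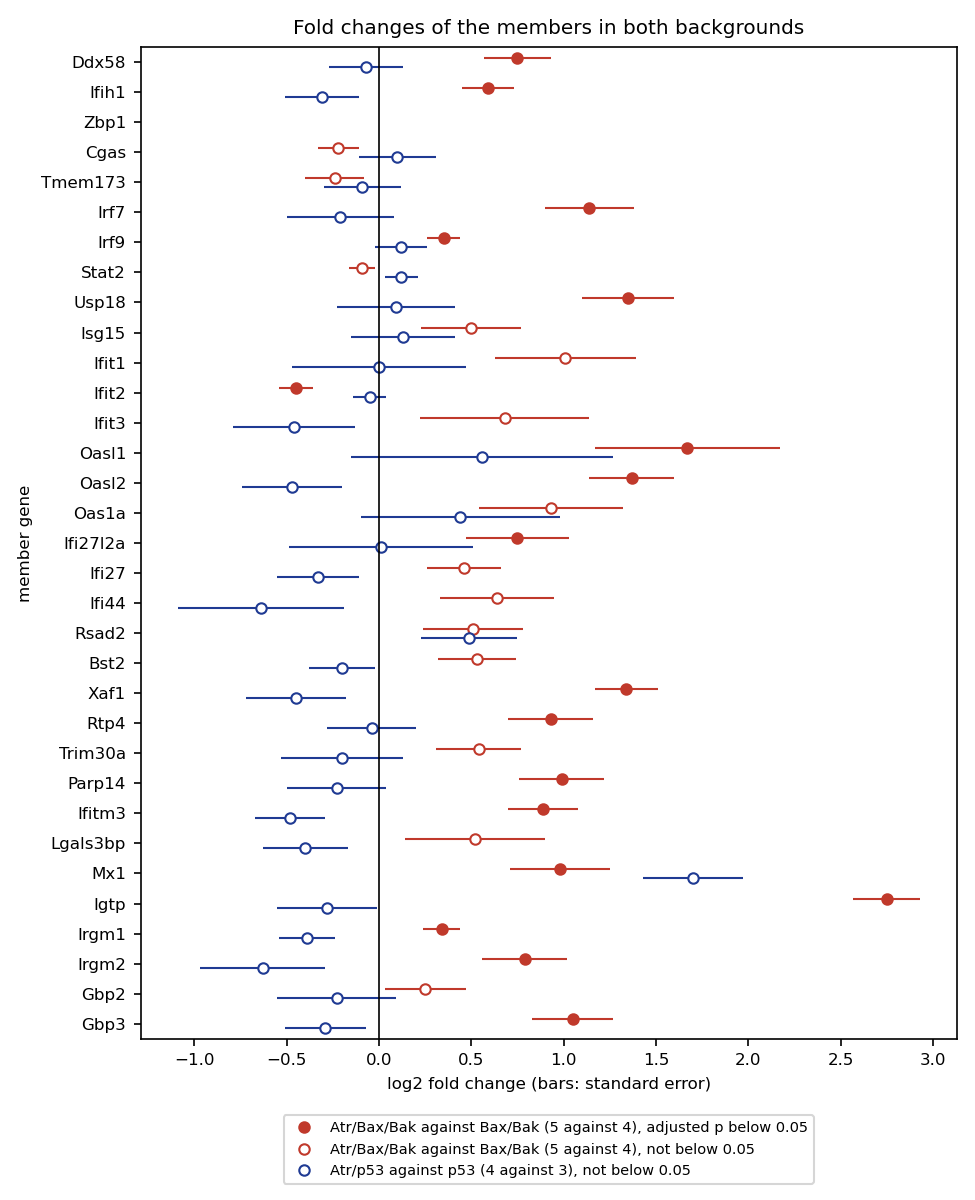
Points are log2 fold changes of the members with Atr deleted against the controls of the same background, and bars are standard errors. Filled points have an adjusted p below 0.05: 18 members in the Bax/Bak background and none in the p53 background. Zbp1 was too low to be tested in either.

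Of the sensors, both RNA helicases rose in Atr/Bax/Bak and the DNA-sensing pair did not pass the test. Ddx58 encodes RIG-I, which binds short double-stranded RNA with a free end. Ddx58 counts were 7.87, 6.17, 5.48 and 3.70 CPM in Bax/Bak control replicates 1 to 4 and 8.74, 9.62, 9.96, 10.2 and 9.53 CPM in Atr/Bax/Bak replicates 1 to 5. Every Atr/Bax/Bak library was above every control, and the log2 fold change was 0.75 ± 0.18 (SE) with an adjusted p of 0.00507. With p53 deleted, Ddx58 stood at 4.03, 5.15 and 4.79 CPM in control replicates 1 to 3 and 5.90, 3.82, 3.59 and 4.30 CPM in Atr/p53 replicates 1, 2, 4 and 5. The groups overlapped there, with a log2 fold change of -0.07 ± 0.20 (adjusted p = 0.951). The difference between the backgrounds for this gene was 0.81 ± 0.28, at an adjusted p of 0.0539.

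Ifih1, which encodes the sensor of long double-stranded RNA MDA5, showed the same order. Its levels were 2.65, 3.33, 3.12 and 2.12 CPM in the Bax/Bak controls and 3.91, 4.30, 4.30, 4.09 and 4.17 CPM in Atr/Bax/Bak, again without overlap. That is a log2 fold change of 0.59 ± 0.14 (adjusted p = 0.00551). The spread of Ifih1 among the 5 Atr/Bax/Bak libraries (SD 0.163 CPM) was smaller than among the 4 controls (SD 0.538 CPM). The p53 controls had 1.86, 2.09 and 2.53 CPM and the Atr/p53 libraries 1.71, 1.51, 1.69 and 2.03 CPM, and these overlapped, with a log2 fold change of -0.31 ± 0.20 (adjusted p = 0.844). For Ifih1 the change differed between the backgrounds by 0.88 ± 0.23 on the log2 scale (adjusted p = 0.0144).

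Cgas encodes the enzyme that makes the messenger cGAMP on binding DNA. It was measured at 3.51, 3.35, 3.22 and 3.75 CPM in the Bax/Bak controls and at 2.67, 2.91, 3.03, 3.20 and 2.90 CPM in Atr/Bax/Bak. All Atr/Bax/Bak libraries lay below all controls, yet the log2 fold change of -0.22 ± 0.11 did not pass the test (adjusted p = 0.134). The p53 background had 5.29, 3.47 and 3.05 CPM in controls and 4.51, 3.74, 4.12 and 4.37 CPM in Atr/p53, with a log2 fold change of 0.10 ± 0.21 (adjusted p = 0.929). An exon on the opposite strand, of Gm8093, overlaps Cgas.

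Tmem173, the gene of STING, which relays the cGAMP signal, had 4.46, 3.67, 3.03 and 2.76 CPM in the Bax/Bak controls and 2.58, 2.82, 2.92, 2.84 and 3.32 CPM in Atr/Bax/Bak. The groups overlapped and the log2 fold change was -0.24 ± 0.16 (adjusted p = 0.231). Against the controls of series 100019 alone Tmem173 was lower, with a log2 fold change of -0.47 past the threshold. Levels in the p53 background were 2.79, 3.97 and 3.10 CPM in controls and 3.91, 2.44, 3.10 and 2.81 CPM in Atr/p53 (log2 fold change -0.09 ± 0.21, adjusted p = 0.938).

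Zbp1, a sensor of left-handed nucleic acid that can trigger necroptosis, was near the limit of counting in every group. It had 3, 5, 4 and 7 counts in the Bax/Bak controls and 17, 11, 16, 9 and 8 counts in Atr/Bax/Bak. There were 9, 6 and 6 counts in the p53 controls and 12, 5, 10 and 6 counts in Atr/p53. Too few libraries held enough counts for a test within either background, but the fit of all groups, which keeps it, gave a log2 fold change of 1.21 in Atr/Bax/Bak (adjusted p = 0.0393) and a difference between backgrounds of 0.95 ± 0.64 (adjusted p = 0.345).

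Among the signalling genes, Usp18, Irf7 and Irf9 rose in Atr/Bax/Bak and Stat2 did not pass the test. Usp18 removes ISG15 from proteins and dampens signalling at the type I interferon receptor. It lay at 0.836, 0.743, 0.502 and 0.374 CPM in the Bax/Bak controls and at 1.34, 1.38, 1.72, 1.47 and 1.68 CPM in Atr/Bax/Bak. The lowest Atr/Bax/Bak library was above the highest control, a 2.55-fold difference (log2 fold change 1.35 ± 0.25, adjusted p = 0.00117). The p53 libraries had Usp18 at 0.843, 0.576 and 0.554 CPM and, with Atr deleted, 0.784, 0.870, 0.671 and 0.465 CPM. These overlapped (log2 fold change 0.09 ± 0.32, adjusted p = 0.961). The change of Usp18 with Atr deleted differed between backgrounds by 1.24 ± 0.38 (adjusted p = 0.0367), a call lost under 14 of 25 alternatives.

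Irf7, the factor that amplifies interferon production, had 1.02, 1.42, 0.990 and 0.900 CPM in the Bax/Bak controls. Its Atr/Bax/Bak libraries had 2.10, 2.15, 3.59, 1.71 and 2.19 CPM, all above the controls, with replicate 3 far above the others. The log2 fold change was 1.14 ± 0.24 (adjusted p = 0.00255). The p53 controls had 0.843, 1.02 and 1.41 CPM and Atr/p53 1.13, 0.792, 1.09 and 0.733 CPM, which overlapped (log2 fold change -0.21 ± 0.29, adjusted p = 0.893). Between backgrounds the change of Irf7 differed by 1.34 ± 0.36 (adjusted p = 0.0185). Exons of Phrf1 lie on the opposite strand within Irf7.

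Irf9 is the DNA-binding partner of STAT2. It was measured at 13, 12.4, 15.1 and 11 CPM in the Bax/Bak controls and 17.1, 15.4, 17.4, 15.9 and 15.4 CPM in Atr/Bax/Bak, without overlap but by a small step of 1.28-fold. Its log2 fold change was 0.35 ± 0.09 (adjusted p = 0.00791), and the call was lost with the controls of series 1842 alone (adjusted p = 0.0559). Irf9 in p53 libraries had 13.3, 10.6 and 10.002 CPM and 12.3, 13.9, 11.2 and 11.4 CPM in controls and Atr/p53, with a log2 fold change of 0.12 ± 0.14 (adjusted p = 0.877). The change did not differ past the threshold between backgrounds (0.22 ± 0.16, adjusted p = 0.376). Irf9 shares an exon stretch on its own strand with Rnf31.

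Stat2 ranged from 34.6 to 47.03 CPM in the Bax/Bak controls and 36.1 to 38.3 CPM in Atr/Bax/Bak, and from 22.96 to 28.1 CPM in p53 controls and 27.5 to 28.95 CPM in Atr/p53. The groups overlapped within each background. Its log2 fold changes with Atr deleted were -0.09 ± 0.07 (adjusted p = 0.346) and 0.12 ± 0.09 (adjusted p = 0.845).

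Of the 19 effector genes, 8 rose in Atr/Bax/Bak, 1 fell and 10 did not pass the test. That is 42.1% higher and 5.26% lower, beside 22.5% and 22% of all genes. The median log2 fold change of all 19 was 0.75. The 8 were Oasl2, Xaf1, Parp14, Ifitm3, Rtp4, Mx1, Oasl1 and Ifi27l2a, and the one that fell was Ifit2. The classical markers of interferon exposure Isg15, Ifit1, Ifit3, Rsad2 and Bst2 were among those that did not pass in edgeR, although their fold changes were all above 0. Some of these outcomes depend on the test. DESeq2 called Ifit1 and Bst2 higher (adjusted p = 0.0271 and 0.039). limma-voom called Ifit1, Ifit3 and Bst2 higher (0.0257, 0.0409 and 0.0274), and also Ifi27 and Trim30a (0.0177 and 0.0406). Neither called Isg15 or Rsad2.

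Oasl2 belongs to the oligoadenylate synthetase family, which answers double-stranded RNA. It was at 2.07, 1.42, 1.31 and 1.04 CPM in the Bax/Bak controls and 3.10, 3.34, 5.13, 3.06 and 3.87 CPM in Atr/Bax/Bak. No control reached the lowest Atr/Bax/Bak library, and the log2 fold change of 1.37 ± 0.23 had an adjusted p of 0.00062. Oasl2 in p53 libraries had 2.36, 1.38 and 1.74 CPM in controls and 1.77, 1.24, 1.25 and 0.959 CPM in Atr/p53 (log2 fold change -0.47 ± 0.27, adjusted p = 0.825). The gap between backgrounds was 1.83 ± 0.36 (adjusted p = 0.00308).

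Xaf1 encodes a pro-apoptotic partner of the inhibitor XIAP and is interferon-inducible. Levels of Xaf1 were 1.16, 1.01, 0.920 and 0.778 CPM in Bax/Bak controls against 2.29, 2.39, 2.96, 2.11 and 2.30 CPM in Atr/Bax/Bak. The groups were well apart, at 2.53-fold (log2 fold change 1.34 ± 0.17, adjusted p = 0.000117). For the p53 background the values were 1.29, 1.80 and 1.92 CPM in controls and 1.32, 1.55, 1.20 and 0.804 CPM in Atr/p53, overlapping, with a log2 fold change of -0.45 ± 0.27 (adjusted p = 0.831). The backgrounds differed by 1.77 ± 0.30 in the change of Xaf1 (adjusted p = 0.00114).

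Parp14, a mono-ADP-ribosyltransferase, had 2.21, 2.45, 2.52 and 1.29 CPM in the Bax/Bak controls and 3.23, 4.25, 5.80, 3.71 and 3.65 CPM in Atr/Bax/Bak. Again the groups were separate and replicate 3 was the highest (log2 fold change 0.99 ± 0.23, adjusted p = 0.00474). The p53 controls had 2.27, 1.54 and 1.86 CPM and Atr/p53 had 2.08, 1.10, 1.88 and 1.33 CPM, for a log2 fold change of -0.23 ± 0.27 (adjusted p = 0.877). Parp14 changed differently in the backgrounds by 1.21 ± 0.36 (adjusted p = 0.0316).

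Ifitm3, a membrane protein that blocks fusion of viruses, was the member with the highest level per transcript length, with a mean of 31.2 TPM over the 16 libraries, ahead of Stat2 at 16.7 TPM and Ifi27 at 12.3 TPM. It stood at 8.82, 9.95, 7.08 and 5.61 CPM in the Bax/Bak controls and 11.4, 13.9, 19.1, 13.2 and 14.1 CPM in Atr/Bax/Bak. The lowest Atr/Bax/Bak library exceeded the highest control, and the log2 fold change was 0.89 ± 0.19 (adjusted p = 0.00315). Ifitm3 in p53 libraries was at 8.29, 8.81 and 8.95 CPM in controls and 8.28, 5.58, 6.15 and 4.75 CPM in Atr/p53. Here every Atr/p53 library was below every control, at the nearest by 8.28 against 8.29 CPM, with a log2 fold change of -0.48 ± 0.19 that did not pass the test (adjusted p = 0.705). Between backgrounds the change of Ifitm3 differed by 1.36 ± 0.27 (adjusted p = 0.00375).

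Rtp4, an interferon-induced chaperone of receptors, was measured at 1.56, 1.60, 1.19 and 0.889 CPM and 1.95, 2.43, 3.44, 2.36 and 2.04 CPM in the Bax/Bak controls and Atr/Bax/Bak. The groups did not overlap (log2 fold change 0.93 ± 0.23, adjusted p = 0.00663), and the call was lost with the controls of series 100019 alone (adjusted p = 0.0546). Its p53 controls had 1.61, 1.45 and 1.39 CPM and Atr/p53 1.49, 1.89, 1.28 and 1.09 CPM (log2 fold change -0.04 ± 0.24, adjusted p = 0.977). The difference between backgrounds, 0.96 ± 0.33, missed the threshold at an adjusted p of 0.0572. An exon of Gm45338 overlaps Rtp4 on the same strand, as one of Gm49730 does Parp14.

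Ifit2, which binds viral RNA and slows translation, went against the 17 members that rose. It had 15.5, 17.5, 14.96 and 13.98 CPM in the Bax/Bak controls and 11.2, 10.4, 10.3, 12.2 and 12.1 CPM in Atr/Bax/Bak. The highest Atr/Bax/Bak library was below the lowest control, a log2 fold change of -0.45 ± 0.09 (adjusted p = 0.00154), that is 1.36-fold lower. Both p53 groups were near the Bax/Bak controls, at 15.6, 14.8 and 14 CPM and 14.1, 14.1, 14.9 and 13.6 CPM (log2 fold change -0.05 ± 0.09, adjusted p = 0.917). The change of Ifit2 with Atr deleted differed between backgrounds by -0.40 ± 0.12 at an adjusted p of 0.0349, lost under 7 of 25 alternatives. The fall of Ifit2 in Atr/Bax/Bak was called under all 18 alternatives run. By mean level per length Ifit2 was the sixth member, at 8.34 TPM, while its neighbours in the gene cluster Ifit1 and Ifit3 were at 0.638 and 1.69 TPM.

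Mx1, an antiviral dynamin-like GTPase, was called in Atr/Bax/Bak and was also the member with the steepest fold change above 0 in Atr/p53. Its levels were 3.51, 3.89, 4.96 and 4.96 CPM in the Bax/Bak controls and 6.25, 9.88, 4.51, 12.3 and 9.47 CPM in Atr/Bax/Bak. Atr/Bax/Bak replicate 3, the highest library for most members, was the lowest for Mx1 and fell within the controls (log2 fold change 0.98 ± 0.27, adjusted p = 0.0137). The call was lost with the controls of series 1842 alone (adjusted p = 0.151). In the p53 controls Mx1 was at 2.06, 1.90 and 2.35 CPM, and in Atr/p53 at 4.36, 9.64, 5.85 and 7.42 CPM. These groups were apart, with a log2 fold change of 1.70 ± 0.27 and an adjusted p of 0.122 in edgeR. Mx1 passed with DESeq2 (1.63e-07), in the fit of all 4 groups (0.0267), without the expression filter (0.0473) and with the shallow library (0.0161), over a range of adjusted p from 1.63e-07 to 0.479 among the alternatives. The change did not differ past the threshold between backgrounds (-0.73 ± 0.40, adjusted p = 0.233).

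Nearly all Mx1 counts were assigned to the transcript Mx1-203, which GENCODE classes as subject to nonsense-mediated decay, at 98.9% to 99.7% of the gene's counts in the 4 groups. The protein-coding Mx1-201 received at most 0.125 CPM in any library. These transcripts are told apart by 318 and 444 words of 31 bases of their own. C57BL/6 mice are known to carry a defective Mx1 allele. The Mx1 values above are thus nearly all counts of that transcript.

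The remaining called effectors were low. Oasl1 lay at 0.0303 to 0.163 CPM in the Bax/Bak controls and 0.133 to 0.447 CPM in Atr/Bax/Bak (log2 fold change 1.67 ± 0.50, adjusted p = 0.0184), a call lost without control replicate 4 (0.0522), with the controls of series 100019 alone (0.123) and under a filter at a mean of 1 CPM, which leaves it out. Ifi27l2a lay at 0.212 to 0.544 CPM and 0.615 to 0.722 CPM, without overlap (log2 fold change 0.75 ± 0.28, adjusted p = 0.0468), and 15 of 18 alternatives lost that call. Both stayed below 1 CPM in every library.

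The 10 effectors that did not pass in Atr/Bax/Bak had log2 fold changes from 0.46 (Ifi27) to 1.01 (Ifit1). Isg15, a ubiquitin-like modifier, was at 0.505 to 1.30 CPM in the Bax/Bak controls and 1.01 to 1.46 CPM in Atr/Bax/Bak (log2 fold change 0.50 ± 0.27, adjusted p = 0.148). Ifit1, an inhibitor of translation of foreign RNA, came closest to the threshold, at 0.232 to 1.09 CPM and 0.949 to 1.94 CPM (log2 fold change 1.01 ± 0.38, adjusted p = 0.0512). For Bst2, the tether of budding viruses, the ranges were 1.87 to 3.79 CPM and 3.55 to 5.56 CPM (log2 fold change 0.53 ± 0.21, adjusted p = 0.0633). The others were Rsad2 (0.51, adjusted p = 0.154), Lgals3bp (0.52, 0.303), Trim30a (0.54, 0.0774), Ifi44 (0.64, 0.12), Ifit3 (0.68, 0.257) and Oas1a (0.93, 0.0749). Ifit3 shares 61.8% of its 31-base words with Ifit3b and Oas1a 68.7% with Oas1g, so the counts of both are uncertain. Levels of Rsad2 were 0.788 to 2.07 CPM in the Bax/Bak controls and 1.5 to 2.25 CPM in Atr/Bax/Bak, of Trim30a 1.07 to 1.91 and 1.66 to 2.70 CPM, of Ifi44 0.354 to 1.09 and 1.04 to 1.72 CPM, and of Ifi27 3.07 to 6.60 and 5.76 to 6.59 CPM. The groups overlapped for all 10 of these effectors. The spread of the controls was wide for this group: Ifit3 ran from 0.536 to 2.62 CPM and Lgals3bp from 2.87 to 11.4 CPM among 4 Bax/Bak controls. With the controls of series 1842 alone, Ifit1, Ifit3, Rsad2, Bst2, Lgals3bp, Trim30a, Ifi44, Ifi27 and Gbp2 were also called higher.

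In Atr/p53 against p53 controls none of the effectors was called, where 0.0461% of all genes rose and 0% fell. The log2 fold changes of the effectors ran from -0.64 (Ifi44) to 1.70 (Mx1). For Isg15 the change was 0.13 ± 0.28 (adjusted p = 0.93), for Ifit1 -0.00 ± 0.47 (0.998), and for Rsad2 0.49 ± 0.26 (0.799). For Rsad2 the difference between backgrounds was 0.01 ± 0.39 (adjusted p = 0.994). Levels of Isg15 were 0.763 to 1.32 CPM in p53 controls and 0.945 to 1.25 CPM in Atr/p53, and those of Ifit1 0.314 to 0.429 and 0.155 to 0.575 CPM. Bst2 stood at 3.04 to 3.19 and 2.14 to 3.20 CPM, and Lgals3bp at 3.79 to 5.495 and 2.75 to 4.90 CPM. All of these overlapped between the groups.

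**Figure D3:**
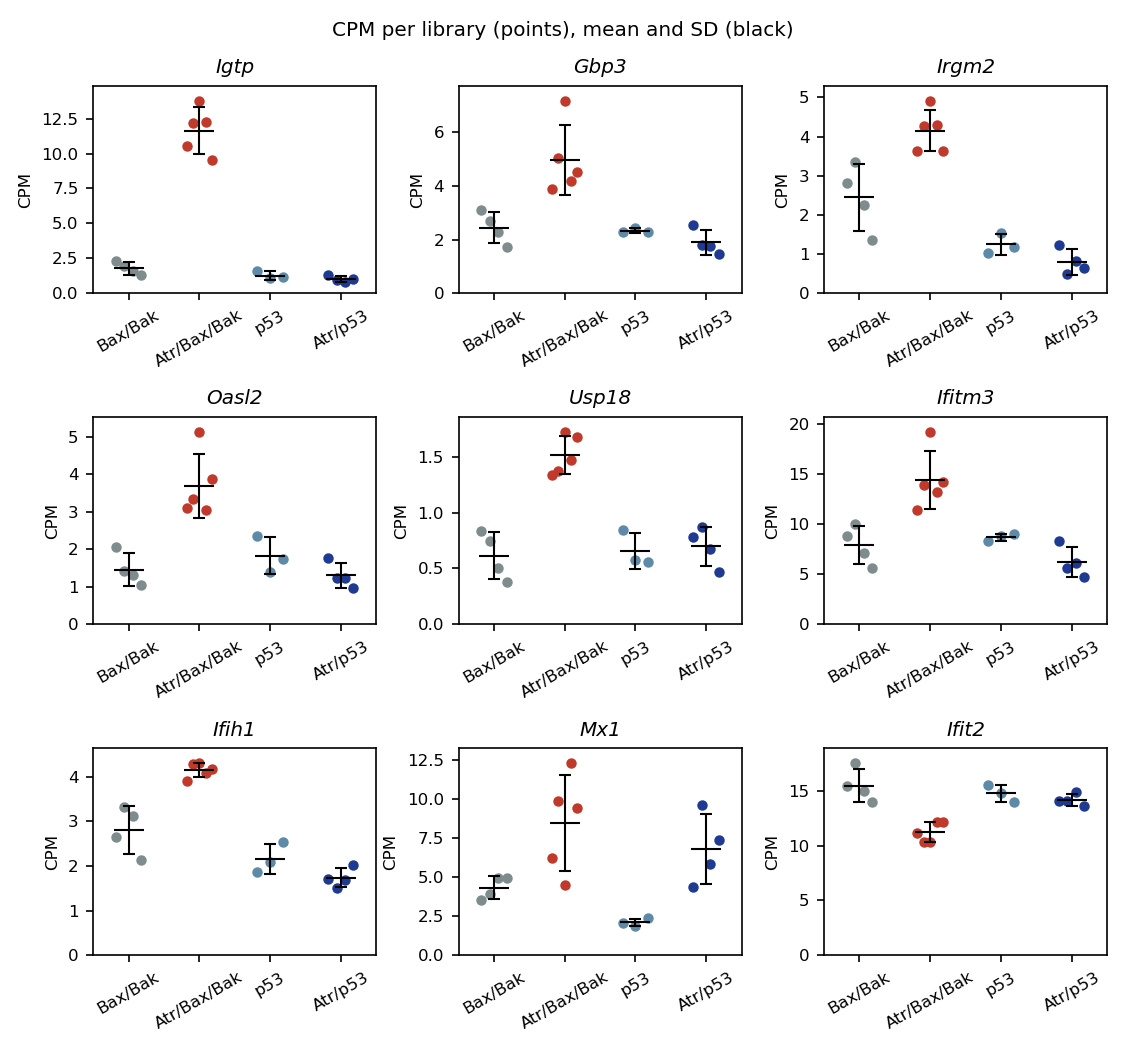
CPM on a linear axis from 0 in each deep library (points) of the 4 genotypes, with the mean and SD in black, for 9 members. Igtp, Gbp3, Irgm2, Oasl2, Usp18, Ifitm3 and Ifih1 are highest in Atr/Bax/Bak, the Mx1 points with Atr deleted are mostly above those of their controls, and Ifit2 is lowest in Atr/Bax/Bak.

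The last members are the 5 interferon-inducible GTPases. These proteins, best known as targets of interferon gamma, load onto membranes of vacuoles that hold microbes and regulate autophagy. In Atr/Bax/Bak 4 of 5 rose (80%, beside 22.5% of all genes), namely Igtp, Gbp3, Irgm2 and Irgm1, and Gbp2 did not pass the test. The summed level of the 5 was 14.1 to 20.5 CPM in the Bax/Bak controls and 30.01 to 41.7 CPM in Atr/Bax/Bak. In p53 controls the sum was 13.2 to 14.8 CPM, and in Atr/p53 it was 9.23 to 13.8 CPM. There 0 of 5 were called, beside 0.0461% higher and 0% lower of all genes, and all 5 fold changes were below 0.

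Igtp (also known as Irgm3) was at 2.30, 1.94, 1.58 and 1.28 CPM in Bax/Bak control replicates 1 to 4. In Atr/Bax/Bak replicates 1 to 5 it was at 10.5, 12.2, 13.7, 12.3 and 9.52 CPM. The lowest of these was 4.14 times the highest control, and the log2 fold change was 2.75 ± 0.18 (adjusted p = 2.29e-06). With p53 deleted Igtp stayed at 1.60, 1.05 and 1.12 CPM in controls and 1.33, 0.916, 0.830 and 1.04 CPM in Atr/p53. That is a log2 fold change of -0.28 ± 0.27 (adjusted p = 0.861), and a difference between backgrounds of 3.01 ± 0.29 (adjusted p = 1.12e-05), which is the largest among the members in this fit. By level per length Igtp rose from a mean of 1.98 ± 0.502 TPM (SD, n = 4) to 13.5 ± 1.68 TPM (SD, n = 5), the highest of the GTPases in Atr/Bax/Bak, above Irgm1 at 10.6 ± 1.13 TPM.

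Gbp3, a guanylate-binding protein, had 3.09, 2.68, 2.29 and 1.73 CPM in the Bax/Bak controls and 3.90, 5.03, 7.15, 4.19 and 4.52 CPM in Atr/Bax/Bak. There was no overlap, and replicate 3 was again the highest (log2 fold change 1.05 ± 0.22, adjusted p = 0.00243). For Gbp3 the p53 libraries had 2.27, 2.45 and 2.28 CPM without and 2.53, 1.80, 1.77 and 1.45 CPM with the Atr deletion (log2 fold change -0.29 ± 0.22, adjusted p = 0.844). For Gbp3 the backgrounds differed by 1.33 ± 0.31 (adjusted p = 0.00955).

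Irgm1, a regulatory member of the family, was at 7.55, 9.16, 8.48 and 8.02 CPM in the Bax/Bak controls and 9.13, 10.4, 12.3, 10.3 and 9.85 CPM in Atr/Bax/Bak. The groups overlapped by 1 library, the change was small (log2 fold change 0.34 ± 0.10, adjusted p = 0.017), and the call was lost without Bax/Bak control replicate 1 (adjusted p = 0.0647) or 4 (0.0552) and with the controls of either series alone. Irgm1 was lower in all Atr/p53 libraries, at 7.21, 5.40, 6.45 and 5.61 CPM against 7.34, 8.36 and 8.73 CPM in controls, a log2 fold change of -0.39 ± 0.15 that did not pass (adjusted p = 0.705). The difference between backgrounds passed, at 0.73 ± 0.17 (adjusted p = 0.00855).

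Irgm2 had 2.81, 3.35, 2.26 and 1.36 CPM in the Bax/Bak controls and 3.64, 4.27, 4.90, 4.30 and 3.64 CPM in Atr/Bax/Bak. The groups were apart by a narrow gap (log2 fold change 0.79 ± 0.23, adjusted p = 0.0147), and the call was lost with the controls of series 100019 alone (adjusted p = 0.0527). Both groups of the p53 background were lower, at 1.01, 1.54 and 1.18 CPM in controls and 1.24, 0.481, 0.830 and 0.634 CPM in Atr/p53 (log2 fold change -0.63 ± 0.34, adjusted p = 0.802). For Irgm2 the backgrounds differed by 1.41 ± 0.40 (adjusted p = 0.0249). Gbp2 ran from 1.73 to 3.42 CPM in Bax/Bak controls and 2.35 to 3.56 CPM in Atr/Bax/Bak to 1.01 to 1.43 and 0.621 to 1.53 CPM in p53 controls and Atr/p53. Its log2 fold changes with Atr deleted were 0.25 ± 0.22 (adjusted p = 0.377) and -0.23 ± 0.32 (adjusted p = 0.896).

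Igtp and Irgm2 lie next to each other on chromosome 11 (GRCm38), on the plus strand, at chr11:58199556-58207591 and chr11:58199618-58222782. The transcript Irgm2-201 begins in the first exon of Igtp and spans that gene, whereas Irgm2-202 has a start of its own at position 58215028. Of the words of Igtp 15.9% occur in Irgm2. In the p53 controls 100% of the Irgm2 counts were assigned to Irgm2-201, in Atr/p53 68.8%, in the Bax/Bak controls 5.03% and in Atr/Bax/Bak 0%. The transcripts differ by only 50 and 39 words of their own, 1.45% and 1.14% of each, so this division rests on few reads and on the assignment by the counting tool. Libraries of Atr/p53 differed, with replicates 1 and 4 on Irgm2-201, replicate 5 on Irgm2-202 and replicate 2 on both. Igtp counts went to Igtp-201 in all 4 groups, at 89.6% to 96.5%.

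**Figure D4:**
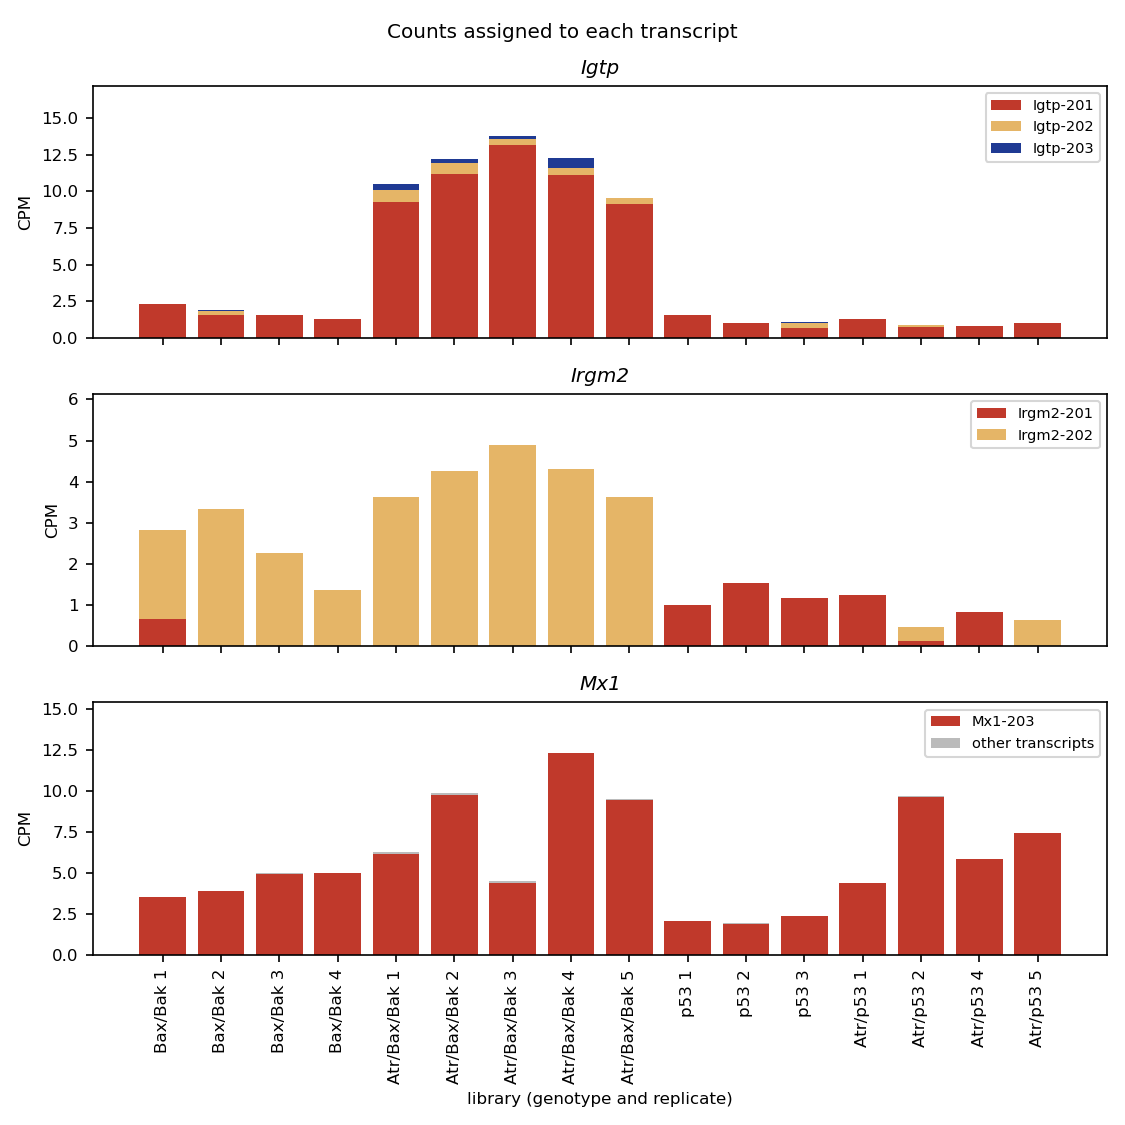
Bars are CPM assigned to each GENCODE transcript of Igtp, Irgm2 and Mx1 in the 16 deep libraries, stacked by transcript. Igtp-201 carries the rise in Atr/Bax/Bak, Irgm2 changes from Irgm2-202 to Irgm2-201 between the backgrounds with Atr/p53 replicates 2 and 5 as exceptions, and Mx1-203 carries nearly all Mx1 counts.

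Interferon factors bind known short elements before gene starts, among them the interferon-stimulated response element and the gamma-activated site, and all 5 GTPases hold the first. The interferon-stimulated response element was searched as GAAA, any 2 bases and GAAA again, and the gamma-activated site as TTCNNNGAA, on both strands of the 250 bases before each start in the RefSeq promoter table (GRCm38.p6). The first occurs in 2.98% and the second in 7.02% of all 32851 promoters of that table. Of the members 25 were in the table, of which 13 held the response element and 5 the gamma-activated site. Irgm1, Irgm2, Igtp, Gbp2 and Gbp3, all 5 GTPases, were among the 13. The 150 bases before the start are shown for the called members with the response element clear of annotated exons, in lower case with the element, or its reverse complement, in capitals, 5′ to 3′ on the gene's strand.
Igtp, chr11:58199406-58199555, plus strand: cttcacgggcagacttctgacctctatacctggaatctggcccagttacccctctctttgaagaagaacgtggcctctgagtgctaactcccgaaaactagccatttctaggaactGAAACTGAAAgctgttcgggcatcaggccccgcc
Irgm2, chr11:58214827-58214976, plus strand: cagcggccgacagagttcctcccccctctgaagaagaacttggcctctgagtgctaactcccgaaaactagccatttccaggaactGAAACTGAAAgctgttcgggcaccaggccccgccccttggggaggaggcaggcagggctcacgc
Gbp3, chr3:142559894-142560043, plus strand: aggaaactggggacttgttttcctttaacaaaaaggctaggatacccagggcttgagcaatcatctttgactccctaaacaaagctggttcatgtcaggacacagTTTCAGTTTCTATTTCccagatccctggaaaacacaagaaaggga
In Igtp the element begins 34 bases before the start and a gamma-activated site 45 bases before it. In Irgm2 the distances are 64 and 75 bases, so that both pairs are 11 bases apart. The Irgm2 distances are from the RefSeq start at position 58214977, which differs from the start of Irgm2-202 at 58215028. Irgm2-201 begins in the first exon of Igtp, so this window does not lie before its start. In Gbp3 overlapping matches lie on the minus strand, the nearest 39 bases before the start.

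For comparison, these are the same windows of classical interferon-stimulated effectors that did not pass in edgeR in Atr/Bax/Bak. DESeq2 and limma-voom did call Ifit1 and Bst2 higher.
Isg15, chr4:156200819-156200968, minus strand: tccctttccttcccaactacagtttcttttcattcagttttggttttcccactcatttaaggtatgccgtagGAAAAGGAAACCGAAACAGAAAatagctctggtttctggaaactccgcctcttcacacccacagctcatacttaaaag
Ifit1, chr19:34640739-34640888, plus strand: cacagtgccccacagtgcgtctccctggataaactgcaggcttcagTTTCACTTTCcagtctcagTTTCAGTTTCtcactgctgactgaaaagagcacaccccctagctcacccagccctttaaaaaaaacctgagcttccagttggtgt
Bst2, chr8:71537473-71537622, minus strand: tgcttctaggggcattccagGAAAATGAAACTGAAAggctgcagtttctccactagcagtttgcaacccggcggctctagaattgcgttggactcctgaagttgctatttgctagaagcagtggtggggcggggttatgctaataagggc
The element was thus present in members that were called and in members that were not. Of the 13 with it, 4 were called higher in Atr/Bax/Bak and 9 were not. The log2 fold changes of those 9 ran from -0.09 (Stat2) to 1.01 (Ifit1). Of the 12 members without it, 8 were called higher and 4 were not, beside 22.5% called higher among all genes. That split was not tested, and it depends on the test that made the calls. Of the 9 with the element, limma-voom called Ifit1, Ifit3, Bst2 and Trim30a higher, and DESeq2 Ifit1 and Bst2. Neither called higher any of the 4 without it. Igtp, with the steepest rise, and Isg15, not called, both carry it within 100 bases of the start. Oasl2, Xaf1, Irf7 and Ifih1 rose and hold no match in these 250 bases. No match says only that these letters are not in that window, and a match is a description of sequence.

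The difference between the backgrounds was tested directly for all 33 members. The log2 fold change with Atr deleted was higher in the Bax/Bak background for 11 members and lower for 1. Among 18189 genes, 8.05% and 8.05% were called in these directions. In the Bax/Bak background that fold change holds any difference between the number series as well, which cannot be told apart from the genotype. The 11 were Igtp, Oasl2, Xaf1, Irgm2, Ifitm3, Irf7, Gbp3, Usp18, Parp14, Ifih1 and Irgm1, and the exception was Ifit2. The median difference of the members was 0.88 on the log2 scale, beside 0.02 for all genes. Igtp, Oasl2, Xaf1, Ifitm3, Irgm1 and Gbp3 passed under each of the 25 alternatives run. With the Bax/Bak controls of series 100019 alone 7 members were higher and 1 lower, beside 6.59% and 4.78% of all genes, and with those of series 1842 alone 17 and 1, beside 5.97% and 8.29%. Leaving out p53 control replicate 3 left these 6 alone, and took Ifih1 to an adjusted p of 0.057, Irf7 to 0.0757, Parp14 to 0.067, Irgm2 to 0.0528, Usp18 to 0.053 and Ifit2 to 0.106. Irgm2 was also lost without p53 control replicate 2 (0.0837). Parp14 was lost without p53 control 1, Bax/Bak control 4 or Atr/Bax/Bak 2 or 3 (0.0526 to 0.0683). Ifit2 was lost without p53 control 2, Bax/Bak control 1, Atr/Bax/Bak 3 or Atr/p53 4 (0.0506 to 0.0773). Usp18 was lost without any single library of the p53 controls, of Atr/Bax/Bak but replicate 1, or Bax/Bak controls 3 and 4 and Atr/p53 4 and 5 (0.0502 to 0.0863).

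The controls of the backgrounds were compared in the same fit, and these libraries are also the controls of the Atr comparisons. Between p53 controls and Bax/Bak controls 1 member was higher, Xaf1 (log2 fold change 0.79 ± 0.23, adjusted p = 0.0244), against 9.32% of all genes. Lower were 4, namely Stat2 (-0.63 ± 0.09, 0.000355), Mx1 (-1.05 ± 0.31, 0.0279), Irgm2 (-0.96 ± 0.31, 0.0396) and Gbp2 (2-fold lower, 0.0269), against 8.71% of all genes. Stat2 was the only one that passed under all 22 alternatives, and each of the other 4 was lost without p53 control replicate 2 or 3 (adjusted p from 0.0516 to 0.114). The median difference of the 33 members was -0.06. The p53 controls share neither number series nor background with the Bax/Bak controls, so these cannot be told apart.

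The ligands were not detected at a level that could be compared. Of 8 interferon genes (Ifnb1, Ifna2, Ifna4, Ifnk, Ifne, Ifnl2, Ifnl3 and Ifng), 3 had no count in the 16 deep libraries and none had more than 7 counts over all of them. In Atr/Bax/Bak Ifnb1 had 0 counts, Ifna2 1 and Ifng 2, over 5 libraries. The 6 receptor genes were tested, and 1 passed (16.7%, beside 22.5% of all genes): Ifngr2, a chain of the interferon gamma receptor, was 1.17-fold higher in Atr/Bax/Bak (58.4 ± 1.78 against 50.5 ± 5.41 CPM, mean ± SD, n = 5 and 4, adjusted p = 0.0157). Between Atr/p53 and p53 controls none passed, where 0.0461% of all genes rose and 0% fell. The smallest p was that of Ifnlr1 (log2 fold change 0.71 ± 0.37, adjusted p = 0.789).

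Of 20 other genes of signal transduction, 5 rose and 1 fell in Atr/Bax/Bak, that is 25% and 5% beside 22.5% and 22% of all genes, so the share that rose was near that of all genes. Nlrc5, the activator of MHC class I genes, was 3.86-fold higher (0.460 ± 0.129 CPM in controls and 1.73 ± 0.197 CPM in Atr/Bax/Bak, adjusted p = 5e-05). Stat3, which carries cytokine signals to the nucleus, had a log2 fold change of 0.46 ± 0.05 (adjusted p = 5.98e-05), and the feedback inhibitor Socs3 fell by 0.72 ± 0.10 on the log2 scale (adjusted p = 0.000179). The changes of Stat3 and Nlrc5 with Atr deleted were higher in the Bax/Bak background, with differences of 0.55 and 1.62 (adjusted p = 0.0161 and 0.0225). For Atr/p53 0 of 20 passed, where 0.0461% of all genes rose and 0% fell. Irf3 had the smallest p (log2 fold change -1.51 ± 0.52, adjusted p = 0.638).

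Of 19 further sensors and nucleases, 7 rose and 4 fell in Atr/Bax/Bak. That is 36.8% and 21.1%, beside 22.5% and 22% of all genes, so the share that fell was near that of all genes. Those that fell were the ribonuclease H2 subunits Rnaseh2b (-0.54 ± 0.06, adjusted p = 6.35e-05), Rnaseh2a (-0.46 ± 0.08, 0.00064) and Rnaseh2c (-0.34 ± 0.07, 0.0023), and Samhd1, which degrades deoxynucleotides (-0.27 ± 0.05, 0.00113). Adar, which edits double-stranded RNA, was 1 of the 7 that rose (0.24 ± 0.04, adjusted p = 0.000726), and the others of the 7 are not named here. For Atr/p53 0 of 19 passed, where 0.0461% of all genes rose and 0% fell. The difference between backgrounds was past the threshold above 0 for 4 of 19 and below 0 for 3. That is 21.1% and 15.8%, beside 8.05% of all genes in each direction.

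Of 37 tested genes among 39 other interferon-stimulated genes, 17 rose in Atr/Bax/Bak and 1 fell, with a median log2 fold change of 0.34. That is 45.9% and 2.7%, beside 22.5% and 22% of all genes. The smallest p-values were those of Gbp7 (0.54 ± 0.10, adjusted p = 0.00123), Mx2 (1.61 ± 0.31, 0.00157) and Oas2 (0.96 ± 0.18, 0.00161). Ly6e, a membrane-anchored restriction factor that is also widely expressed in development, was the gene that fell (-0.42 ± 0.08, adjusted p = 0.00171). For Atr/p53 none of 36 passed, where 0.0461% of all genes rose and 0% fell. Ly6e had the smallest p there (-0.44 ± 0.15, adjusted p = 0.633). The difference between backgrounds was above 0 and past the threshold for 6 of 38 (15.8%, beside 8.05% of all genes). Mx2 (1.95, adjusted p = 0.00851) had the smallest p.

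Genes that mark several cell types also differed between Atr/Bax/Bak and the Bax/Bak controls, where 22.5% of all genes were higher and 22% lower. Markers of microglia, the resident macrophages of the brain, were higher in Atr/Bax/Bak for 11 of 15 (73.3%). Their summed level was 154 to 202 CPM in the Bax/Bak controls and 222 to 271 CPM in Atr/Bax/Bak. In the p53 background 0 of 15 passed, and the sum was 240 to 280 CPM in controls and 251 to 271 CPM in Atr/p53. The p53 controls exceeded the Bax/Bak controls in 11 of 15 microglia markers (73.3%, beside 9.32% of all genes). Markers of astrocytes and Bergmann glia were higher for 8 of 10 and lower for 1 (summed 4227 to 4599 and 5444 to 6860 CPM), of Purkinje cells higher for 5 of 6 (1453 to 1670 and 1704 to 2393 CPM), of pericytes for 4 of 6 (295 to 410 and 431 to 493 CPM) and of endothelium for 3 of 10 (338 to 421 and 371 to 426 CPM). Of the granule lineage 9 of 12 were lower and 1 higher (3311 to 4407 and 2454 to 2884 CPM). Of other leukocytes, red blood cells, meninges, border macrophages and choroid plexus, 1 of 6 tested, 1 of 6, 0 of 10, 0 of 5 and 0 of 6 were higher and none lower. The shares higher of endothelium (30%), other leukocytes (16.7%) and red blood cells (16.7%) were near that of all genes. In Atr/p53 no marker of these 11 lists passed the test, but only 0.0461% of all genes rose and 0% fell there. The absence of calls thus does not show that these markers were unchanged. The median log2 fold changes of the lists ran from -0.65 (meninges) to 0.20 (Purkinje cells). That of other leukocytes was 0.18, and those of the remaining lists were below 0. No marker of these lists was at 0 in all 16 libraries, 6 of the 12 leukocyte markers were at 0 in some, and the part of these cells in the results was not tested.

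Within the Bax/Bak controls the number series differed. Both libraries of series 100019 were above both of series 1842 for 22 of 33 members and below them for 2, beside 26.2% above and 25.6% below among all 17425 genes. The same libraries held more RNA of tissue around the brain: the summed markers of the meninges, which the protocol removes, were 1579 and 1270 CPM in replicates 1 and 2 and 556 and 535 CPM in replicates 3 and 4. Those of border macrophages were 94.0 and 84.3 against 37.2 and 36.7 CPM, and those of choroid plexus 3781 and 1797 against 64.7 and 65.5 CPM. In Atr/Bax/Bak the meningeal sum was 749 to 911 CPM and that of border macrophages 45.9 to 54.0 CPM, between the 2 series of controls, and the choroid plexus sum varied from 34.4 to 2769 CPM. Replicate 4 was the lowest control for 27 of 33 members and for 22.4% of all genes. The part of this RNA in the results was not tested.

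Single libraries of the other groups also stood apart. Atr/Bax/Bak replicate 3 was the highest of its group for 23 of 33 members and for 18.2% of all genes, and without it 16 members rose and 1 fell. Atr/p53 replicate 1 was the highest of its group for 17 of 33 and for 19.6% of all genes, and its meningeal sum was 613 CPM against 225 to 308 CPM in the other 3. In the p53 controls these markers summed to 314, 631 and 842 CPM in replicates 1 to 3. The level of the GTPases in Atr/p53 replicate 1 was 13.8 CPM, within the range of the p53 controls, and 9.23 to 11.1 CPM in the others. The part of this RNA in the members' levels was not tested.

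**Figure D5:**
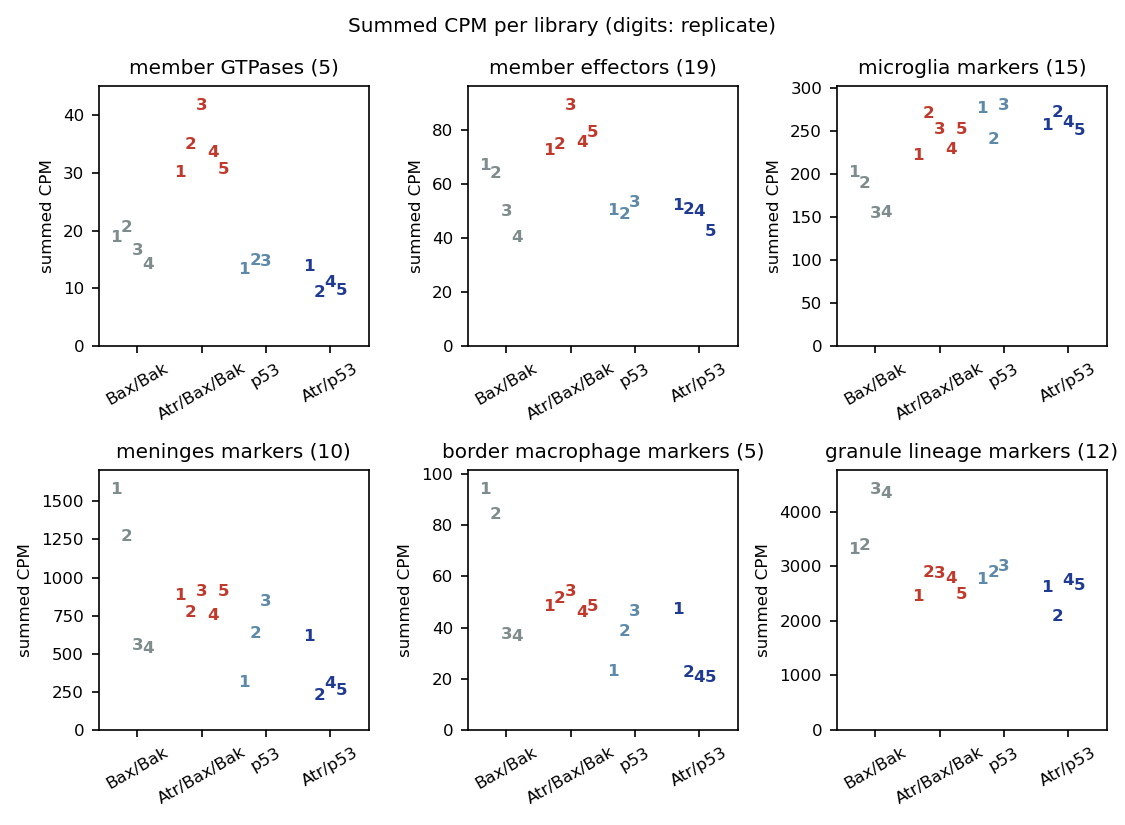
Each digit is the replicate number of a deep library, placed at the summed CPM of a list of genes, on linear axes from 0. The GTPases and effectors are highest in Atr/Bax/Bak, the microglia markers are as high in both groups of the p53 background, and Bax/Bak controls 1 and 2 are above controls 3 and 4 for meninges and border macrophage markers.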

How the data were processed

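Poly-A selected RNA of P3 cerebella was sequenced in 2 lanes a sample from stranded TruSeq libraries, per the labels' protocols. Values are estimated counts, 1 for each Ensembl transcript in each lane, as deposited. Of tools and builds, the submitters' processing notes list kallisto 0.42.4, edgeR, mm9 and GRCm38, with no roles, and how strand was set in counting is not given in the sources used here.

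Both lanes, and all transcripts of a gene in GENCODE M21 (build GRCm38), were added up, with 92372 of 94080 identifiers matched. The others, 0.746% to 1.01% of the counts in deep libraries, were left out. Sums were rounded. In the shallow library, replicate 3 of Atr/p53, both lane columns were identical, so they were counted once, and its number is that of replicate 1 with a suffix. No pair of replicates agreed within sampling noise (the smallest chi-square was 17.3 per degree of freedom).

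Each Atr comparison was fitted on its own groups and the difference between backgrounds on all 4 groups, with edgeR 4.0.16 in R 4.3.3 (TMM scaling, default filter by group, robust quasi-likelihood F-test, Benjamini-Hochberg threshold 0.05). The standard error is the log2 fold change over the root of F. CPM used TMM-scaled sizes of the 16 deep libraries, and TPM the annotated lengths. The scripts were tested on simulated counts. P-values set the difference between groups against the spread between samples, which may be in part technical. Alternatives were other scaling and filters, DESeq2 1.42.0, limma-voom (limma 3.58.1), fits of other samples and each library left out. Values are given in every library for members called in an Atr comparison or in the difference between backgrounds with a group mean of at least 1 CPM, and for the sensors. From each pathway list up to 3 called genes of smallest p are named, or the gene of smallest p where none was called, and others were named after their values were seen. Some genes of these lists are counted but not reported here by name. The members and lists were chosen with earlier results of these data known. Tables and figures used Python 3.11.15, numpy 2.4.6, pandas 2.3.3 and matplotlib 3.10.9.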

Additional observations from a re-analysis of the deposited data

Results flagged for a closer look

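Irf7 in Atr/Bax/Bak replicate 3, at 3.59 CPM, lay further from the other 4 libraries of its group than Dixon's test allows at the 95% level. It was 1 of 57 groups of 4 or 5 libraries examined for 19 members, and chance gives about 1 in 20.

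The log2 fold change with Atr deleted differed between the backgrounds by a test of the difference itself for 12 members (edgeR interaction, adjusted p below 0.05). In the Bax/Bak background that fold change holds any difference between the number series as well, which cannot be told apart from the genotype. Of the 12, 6 passed under each of the 25 alternatives. The differences of log2 fold changes, Bax/Bak background minus p53 background, were 3.01 for Igtp, 1.83 for Oasl2, 1.77 for Xaf1, 1.41 for Irgm2 and 1.36 for Ifitm3. They were 1.34 for Irf7, 1.33 for Gbp3, 1.24 for Usp18, 1.21 for Parp14, 0.88 for Ifih1 and 0.73 for Irgm1. For Ifit2 the difference was -0.40.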

How the results depend on the processing

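Of the 18 members called in the Bax/Bak background, 11 were called under all 18 alternatives, of the 12 with a difference between backgrounds 6 under all 25, and of the 5 called between controls 1 under all 22. No direction of a called member reversed. In Atr/Bax/Bak DESeq2 called 18 members higher and 1 lower, beside 3908 and 4267 of 17416 genes. limma-voom called 22 and 1 there, beside 4292 and 3868 of 17425 genes. Leaving out each library in turn gave 15 to 21 members called in Atr/Bax/Bak (15 without Bax/Bak control 4), 6 to 14 with a difference between backgrounds and 1 to 5 between the controls. For Atr/p53 against p53 controls, 1 member (Mx1) was called with DESeq2, with all 4 groups in 1 fit, with no filter and with the shallow library, and 0 in the other alternatives. All genes called there were 8, against 128 with DESeq2, 70 with all 4 groups in 1 fit, 13 with the controls of series 1845 (the fit without p53 control 1, counted once), 4 with limma-voom, 14 with no filter, 23 with the shallow library and 2 to 13 with 1 library left out. With 1 library left out, genes with a difference between backgrounds numbered 1628 to 3562 (2929 with all) and those between controls 1881 to 4702 (3279 with all). limma-voom called 2 members between controls. Fits of the difference between backgrounds with the controls of 1 number series were chosen after seeing the data. The median of the members in Atr/Bax/Bak was 1.04 with the controls of series 1842 and 0.47 without Bax/Bak control 4. Members below 1 CPM, Zbp1, Oasl1 and Ifi27l2a among them, are limited by depth. The cause of the changes was not tested. No paired analysis was possible because the replicate numbers follow the order of the samples and pair no animals across groups.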
